A study of Mus musculus with 4 samples.

Results

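Epididymal fat of CD1d knockout mice kept on a low-fat diet was compared with that of wild type mice kept on a high-fat diet, across all genes measured. The comparison holds 3 of the 4 arrays of the series: the arrays called KO1 and KO2, both of CD1d-/- mice on the low-fat diet with 10 kcal% fat, and 1 array of wild type C57BL/6J mice on the high-fat diet with 45 kcal% fat, called the high-fat array. Each KO array was set against the high-fat array separately, and the 4th array, of wild type mice on the low-fat diet, is given beside the results as a value. All mice were of the C57BL/6 strain, the null allele having been backcrossed to C57BL/6J for 10 to 12 generations, and began their diet at an age of 10 to 11 weeks for 18 to 19 weeks. Both genotype and diet differ between the groups compared, so what either contributes cannot be told apart. RNA of 4 to 6 mice was pooled per group, and nothing in the labels says whether the KO arrays held separate pools, so a p-value reflects the spread of these arrays alone, which may be technical. The high-fat array has no replicate.

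CD1d is a non-classical MHC class I-like molecule that binds lipids and shows them to natural killer T (NKT) cells, which do not develop without it. In mice on a fat-rich diet, growing adipocytes are surrounded by macrophages that take up lipid, express the integrin CD11c and proliferate in place. The epididymal fat pad is attached to the epididymis, the duct in which sperm mature, so duct and smooth muscle RNA can be found in dissected pads. In whole tissue, fewer cells of a type and less RNA per cell cannot be told apart.

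Levels are log2 intensities, and a difference is the KO level minus the high-fat level on the log2 scale. There were 18820 genes with a probe set of a single symbol, and the 11292 with a mean level of at least 5.45 over the 4 arrays were tested. Adipocyte identity genes, the check of the tissue label, had a median level of 12.76 on the high-fat array, 12.79 on KO1 and 12.75 on KO2, and all 19 with a probe set were above the filter. A level under its array's median over all probe sets is called close to the bottom of the range here. The medians were 5.68 on the high-fat array, 5.71 on KO1 and 5.68 on KO2. This cut is a convention and not a measured floor, and a fold against such a level is written as a lower bound. The KO arrays stood at very different distances from the high-fat array. KO1 was at least 1.5-fold from it in 2806 genes and KO2 in 325. KO2 was 1145 genes from the low-fat wild type array, which shares its diet label, and 2177 genes from KO1, so by this count the high-fat array was the nearest to it. Gpr50, an orphan relative of the melatonin receptors, was at 10.24 on the high-fat array, 3.89 on KO1 and 10.06 on KO2 and at 4.33 on the low-fat wild type array, so KO2 lay with the high-fat array and apart from both other arrays labelled low-fat. Cd1d1 checks the genotype labels. By the gene counts and Gpr50, KO2 did not lie with the other arrays of its diet label. Other gene groups, collected after their values were seen, went otherwise. Hepatocyte genes had median levels of 7.57 on the high-fat array, 6.99 on KO1, 6.61 on KO2 and 6.18 on the low-fat wild type array. For epididymal genes the medians were 4.62, 5.23, 6.60 and 8.01 in the same order. The cause was not tested. The diet label cannot be checked against a gene, so every value of KO2 is that of an array labelled low-fat.

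On KO1, 515 genes (4.56% of those tested) were at least 1.5-fold higher and 2291 (20.3%) at least 1.5-fold lower than on the high-fat array. On KO2 the counts were 177 (1.57%) and 148 (1.31%). The median difference over all tested genes was −0.23 on KO1 and −0.08 on KO2. Centring the arrays on that median turned the split on KO1 into 1102 higher and 1080 lower, and that on KO2 into 224 and 100, so medians of gene lists are given relative to all tested genes, KO1 first. On both KO arrays, 107 genes (0.948%) were at least 1.5-fold higher and 89 (0.788%) lower, and 18 genes lay that far out in opposite directions. These counts share the high-fat array, so a value peculiar to that array enters both KO columns. Of the 107 genes, 64 were also at least 1.5-fold higher on the low-fat wild type array than on the high-fat array, where 3.82% of all tested genes were. Of the 89 genes 62 were also lower there, against 7.72% of all. The low-fat wild type differences subtract the same high-fat array, so a value peculiar to that array raises both overlaps.

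The limma test, a moderated test fitted over the 11292 genes with Benjamini-Hochberg adjustment at 0.05, called 0 genes higher (0%) and 1 gene lower (0.00886%). An unadjusted limma p under 0.05 was reached by 86 upward and 41 downward, together 1.12% of tested genes. That share is smaller than the 0.05 cut itself. The spread in the limma test came from the KO pair alone, with 1 residual degree of freedom. All other differences are therefore given as sizes on each array and not as changes that passed a test.

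**Figure D1:**
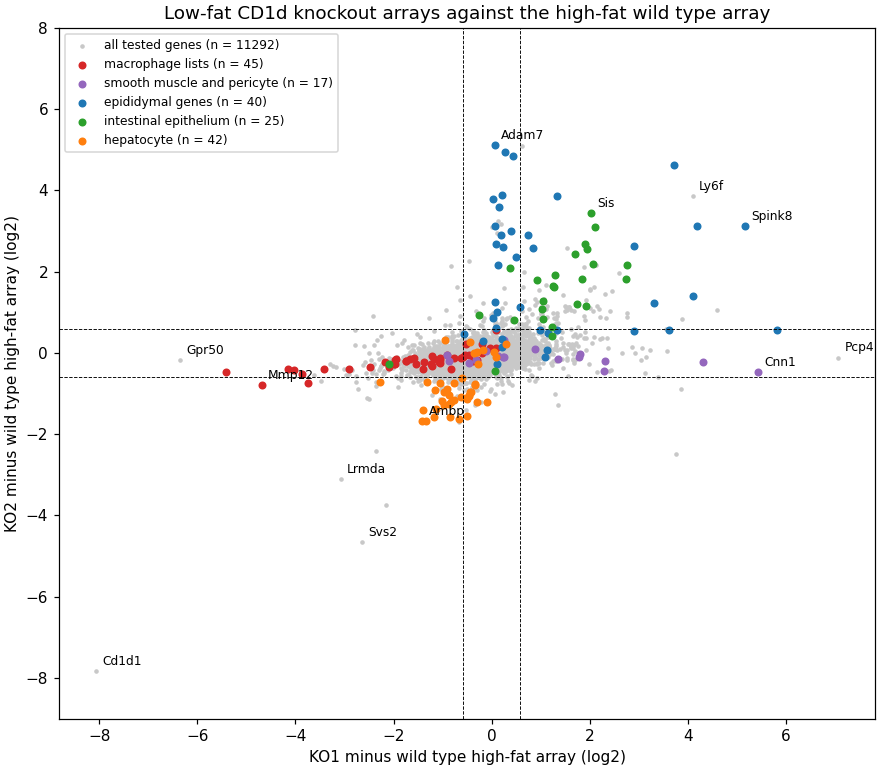
Difference of each KO array from the wild type high-fat array (log2), KO1 on the horizontal and KO2 on the vertical axis; each point is 1 tested gene, colours mark gene groups and dashed lines 1.5-fold. Macrophage genes spread to the left along the horizontal axis, to −5.41 for Atp6v0d2, while Cd1d1 lies at −8.07 and −7.83.

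Cd1d1, the disrupted gene, was the gene that fell. It was at 11.80 on the high-fat array, 3.74 on KO1 and 3.98 on KO2 (KO mean 3.86 ± 0.17, SD, n = 2), and at 11.80 on the low-fat wild type array, so both wild type arrays were high and both KO arrays near the bottom of the intensity range. The difference was −7.95 with a standard error of 0.32 (limma, adjusted p = 0.00646), and a test over all 18820 genes gave an adjusted p = 0.0932 in limma. The neighbouring copy Cd1d2 was below the filter, at 4.46 on the high-fat array, 4.50 on KO1 and 4.18 on KO2. Some other genes of lipid antigen loading were lower on KO1. Gla, a lysosomal galactosidase that trims glycolipids, was at 8.75 on the high-fat array, 7.04 on KO1 and 8.42 on KO2, and Psap, the precursor of the saposins, at 12.91 on the high-fat array, 12.28 on KO1 and 12.88 on KO2. Of the 11 tested genes of this list, 5 were at least 1.5-fold lower on KO1, Cd1d1 included (3 after centring), and 1, Cd1d1 itself, on KO2. Mttp, the lipid transfer protein that loads CD1d, went the other way, at 5.79 on the high-fat array, 6.34 on KO1 and 6.41 on KO2.

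Of the 107 genes higher on both KO arrays, 43 had the low-fat wild type array within 1.5-fold of the high-fat array. Of the 89 lower genes, 27 did. Examples of these follow. Lrmda, a gene of melanocyte differentiation, was at 9.25 on the high-fat array, 6.17 on KO1 and 6.14 on KO2, against 9.54 on the low-fat wild type array. Sfrp2, a secreted Wnt modulator, was at 8.89, 7.78, 7.48 and 8.96 on the high-fat array, KO1, KO2 and the low-fat wild type array, the order used for 4 levels from here on. Thbs3, a thrombospondin of the matrix, was at 7.30, 6.08, 6.26 and 7.26. Wdfy1, an endosomal adaptor protein, went the other way, at 6.22, 6.99, 7.31 and 6.34. In limma the adjusted p was 0.312 for Lrmda and 0.999, 0.999 and 0.999 for the others. Lrmda and Wdfy1 belong to a list of genes that may vary between C57BL/6 substrains, chosen with earlier results of these data known, of which 1 of 7, Wdfy1, was at least 1.5-fold higher on both KO arrays and 2, Lrmda and Mmrn1, lower on both. The last, a matrix protein of platelets and endothelium, was at 6.63, 5.72, 6.01 and 5.59, low on the low-fat wild type array as well and within 1.5-fold on KO2 after centring, and the list's relative medians were 0.02 and −0.11. Lrmda passed when only the genes above the 60th percentile of mean level were tested, with an adjusted p = 0.0277 in limma.

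Multi-copy Y-linked genes of spermatids were higher on both KO arrays than on either wild type array. Srsy was at 6.25, 8.85, 8.21 and 6.68, read by 1 of its 13 probe sets, and Sly, a repressor of sex-linked genes in spermatids, at 7.25, 8.75, 8.28 and 7.32, read by 1 of 8. Of the 9 tested genes that the RefSeq table places on chromosome Y, 6 were at least 1.5-fold higher on both KO arrays: Srsy, Sly and the predicted genes Gm20806, Gm20809, Gm20815 and Gm20831. Multi-copy genes of this kind have near-identical copies, so their probes may be shared. The single-copy genes Uty, Kdm5d and Eif2s3y were the other 3, with differences of −0.85 and −0.22, −0.43 and −0.27 and −0.37 and −0.17. These Y-linked genes were collected after their values were seen.

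Fkbp5, a chaperone of the glucocorticoid receptor that glucocorticoids induce, was also higher on both KO arrays than on both wild type arrays, at 7.53, 8.77, 8.50 and 7.84. Zbtb16 was at 10.23, 10.98, 10.81 and 10.29; it encodes PLZF, a factor induced by glucocorticoids in fat cells and the lineage factor of NKT cells. Among the 15 tested glucocorticoid-responsive genes, 5 were at least 1.5-fold higher on KO1 and 3 on KO2, but only 1, Fkbp5, on both. At least 1.5-fold lower were 2 on KO1 and 0 on KO2. The relative medians were 0.43 and 0.33, against −0.13 on the low-fat wild type array. Cdkn1a, a cell cycle inhibitor in the same list, lay on opposite sides of the high-fat level, at 9.88 on the high-fat array, 8.92 on KO1 and 10.56 on KO2.

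Macrophage genes were much lower on KO1 than on the high-fat array, and on KO2 they were near the high-fat level. Of 24 pan-macrophage genes, 19 were at least 1.5-fold lower on KO1 and 0 on KO2, with relative medians of −0.96 and −0.10. Cd68, a lysosomal glycoprotein of macrophages, was at 11.61 on the high-fat array, 9.53 on KO1 and 11.28 on KO2. Adgre1, a surface receptor of macrophages, was at 10.22 on the high-fat array, 8.23 on KO1 and 9.95 on KO2, and the lineage factor Spi1 (PU.1) at 9.51 on the high-fat array, 7.78 on KO1 and 9.31 on KO2. On each of these genes KO2 stayed within 1.5-fold of the high-fat array. The low-fat wild type array was low as well, with a relative median of −0.78 and 17 genes at least 1.5-fold lower. KO1 also held more transcripts of smooth muscle and general epithelium, with relative medians of 0.49 and 1.85, and their part in the lower macrophage levels was not tested.

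Genes of lipid-laden macrophages were among those furthest below the high-fat array on KO1. Atp6v0d2, a subunit of the lysosomal proton pump, was at 10.64 on the high-fat array, 5.23 on KO1 and 10.17 on KO2, at least 42.5-fold lower on KO1. Mmp12, the macrophage elastase, was at 11.28 on the high-fat array, 6.59 on KO1 and 10.49 on KO2, 25.8-fold and 1.72-fold lower. Itgax, the integrin CD11c, was at 9.45 on the high-fat array, 5.72 on KO1 and 8.72 on KO2, 13.3-fold and 1.66-fold lower. Mmp12 and Itgax were the members of this list at least 1.5-fold lower on both KO arrays. Gpnmb, a glycoprotein of lipid-loaded phagocytes, was at 11.59 on the high-fat array, 7.44 on KO1 and 11.21 on KO2, and Trem2, their lipid-sensing receptor, at 9.94 on the high-fat array, 6.52 on KO1 and 9.53 on KO2. Tm4sf19 and Rgs1 were at 9.51 and 8.98 on the high-fat array and at 5.49 and 5.11 on KO1, close to the bottom of the range. KO2 had them at 9.09 and 8.47. Of 21 tested genes, 16 were at least 1.5-fold lower on KO1 and 2 on KO2, with relative medians of −1.44 and −0.20 and of −1.47 on the low-fat wild type array. The list also holds Lpl, Cd36, Plin2 and other genes that adipocytes express.

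Lists of lysosomal, Toll-like receptor and cytokine genes followed the same pattern, and which cells expressed them was not tested. The lysosomal list shares Atp6v0d2 with the list of lipid-laden macrophages. Lysosomal genes were at least 1.5-fold lower in 18 of 27 on KO1 (11 after centring) and 0 on KO2 (relative medians −0.51 and −0.02). Ctsk, a collagen-cleaving cathepsin, was at 9.53 on the high-fat array, 6.62 on KO1 and 9.13 on KO2, and Lipa, the lysosomal acid lipase, at 11.56 on the high-fat array, 9.59 on KO1 and 11.28 on KO2. For Toll-like receptors and their partners the counts were 10 and 0 of 14 (−0.64 and 0.01). Tlr13, a sensor of bacterial ribosomal RNA, was at 9.25 on the high-fat array, 5.96 on KO1 and 8.98 on KO2, and Cd180, a Toll-like receptor homologue, at 9.99 on the high-fat array, 6.83 on KO1 and 9.65 on KO2. Cytokine and chemokine genes counted 8 lower of 14 on KO1 and 1 on KO2 (−0.72 and 0.00). Ccl2, which attracts monocytes, was at 8.82 on the high-fat array, 6.81 on KO1 and 8.48 on KO2, and Il1rn, the interleukin-1 receptor antagonist, at 7.05 on the high-fat array, 4.85 on KO1 and 6.55 on KO2. Tnf, Il6 and Il1b were among 11 genes of this list below the filter.

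Ptgs2, the inducible cyclooxygenase in the cytokine list, was the gene of that list lower on KO2. It was at 8.64 on the high-fat array, 12.41 on KO1 and 6.14 on KO2, 13.6-fold above the high-fat array on KO1 and 5.66-fold below it on KO2. With 10.72 on the low-fat wild type array, the 4 arrays spanned a wide range with the KO arrays at both ends.

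Genes of resident and alternatively activated macrophages differed less. Of 17 tested, 5 were at least 1.5-fold lower on KO1 (1 after centring), where 20.3% of all tested genes were, and 0 on KO2, with relative medians of −0.12 and 0.13. Mrc1, the mannose receptor, was at 10.11 on the high-fat array, 9.09 on KO1 and 9.97 on KO2, while the haemoglobin scavenger receptor gene Cd163 was at 8.06 on the high-fat array, 8.44 on KO1 and 8.39 on KO2. MHC class II and dendritic cell genes were lower in 8 of 13 on KO1 (3 after centring) and 1 on KO2 (−0.46 and −0.06), with H2-Eb1, an MHC class II chain, at 11.69 on the high-fat array, 11.00 on KO1 and 11.54 on KO2. The complement list gave 7 and 0 of 15 lower (−0.24 and −0.04). C3ar1, the receptor for the fragment C3a, was at 11.09 on the high-fat array, 8.93 on KO1 and 10.85 on KO2. Interferon response genes gave 7 and 0 of 16 (−0.24 and −0.05), and 2 on KO1 after centring.

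**Figure D2:**
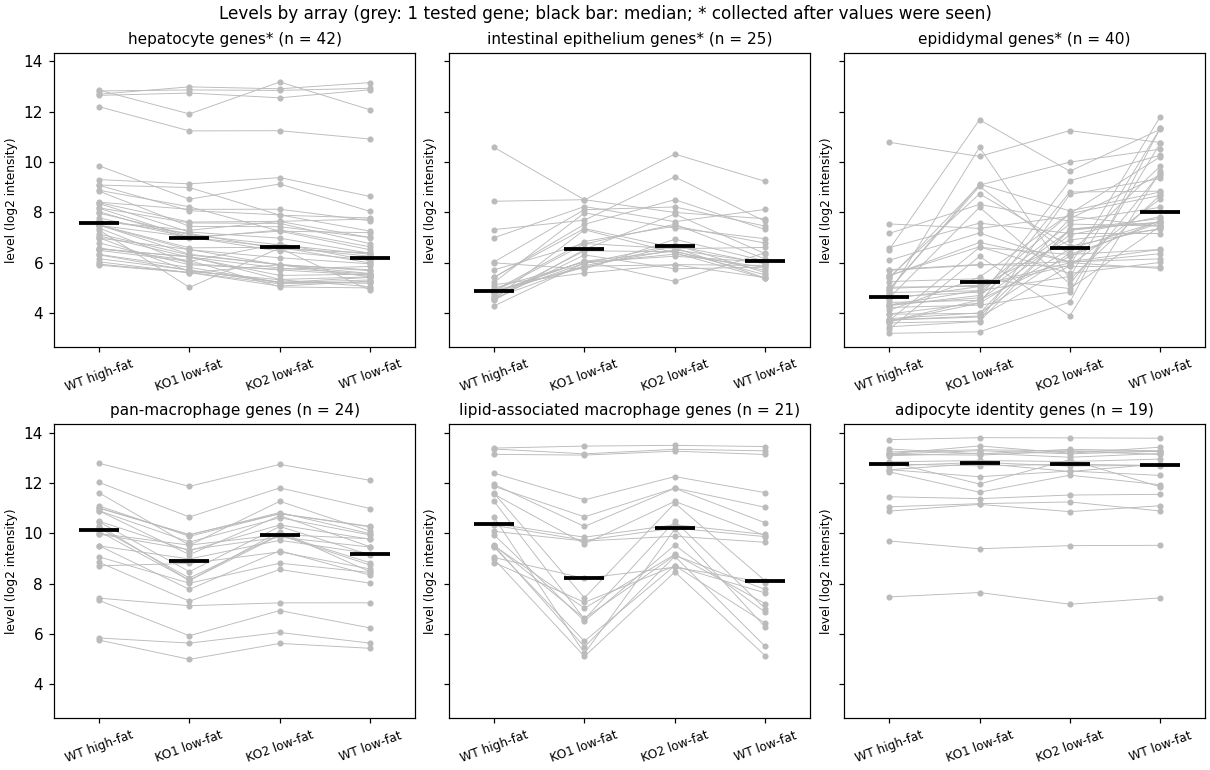
Levels (log2 intensity) of the tested genes of 6 groups on the 4 arrays; each grey line is 1 gene and each black bar the median. Macrophage medians are low on KO1 and on the low-fat wild type array, epididymal genes are lowest on the high-fat array (median 4.62), and adipocyte identity genes stay level at a median near 12.76.

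Matrix and proliferation genes were lower on KO1 beside the macrophage lists, and the part of macrophage content in this was not tested. Of 24 collagen and matrix genes, 16 were at least 1.5-fold lower on KO1 (10 after centring) and 0 on KO2, with relative medians of −0.55 and −0.01. Col6a3, a chain of the collagen VI that surrounds adipocytes, was at 9.05 on the high-fat array, 7.50 on KO1 and 8.75 on KO2, and the proteoglycan gene Lum at 10.11 on the high-fat array, 8.47 on KO1 and 10.01 on KO2. Matrix metalloproteinases and their inhibitors gave 10 and 2 of 15 lower (−0.62 and −0.09), or 8 and 1 after centring. Mmp2, a gelatinase, was at 10.44 on the high-fat array, 8.74 on KO1 and 10.37 on KO2, and Timp1, an inhibitor, at 7.31 on the high-fat array, 5.65 on KO1 and 7.34 on KO2, both level between the high-fat array and KO2. Progenitor and fibroblast genes gave 8 and 1 of 19 (−0.29 and −0.04), or 5 and 0 after centring, with Pdgfra, the receptor that marks adipocyte progenitors, at 9.38 on the high-fat array, 8.35 on KO1 and 8.91 on KO2. Among cell cycle genes, 15 of 17 were lower on KO1 (9 after centring) and 2 on KO2 (0 after centring), with relative medians of −0.76 and −0.15. Mki67 was at 7.17 on the high-fat array, 5.22 on KO1 and 6.93 on KO2, and the replication helicase subunit gene Mcm5 at 6.85 on the high-fat array, 5.73 on KO1 and 6.21 on KO2.

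Adipocyte genes differed little in identity, and those of expansion and of cholesterol handling were lower on KO1. Of 19 identity genes, 2 were at least 1.5-fold lower on KO1 (1 after centring) and 0 on KO2, Lep and the glycerol channel gene Aqp7 being those on KO1. Lep (leptin, a hormone of satiety) stood at 12.85 on the high-fat array, 11.97 on KO1 and 12.93 on KO2, and Mest, which follows fat cell enlargement, at 12.76 on the high-fat array, 11.87 on KO1 and 12.68 on KO2. Gpr50, with the levels given above, was at least 81.7-fold lower on KO1. Adipose expansion genes gave 7 and 0 of 14 lower (−0.38 and 0.01). Cholesterol genes gave 11 (7 after centring) and 0 of 20 (−0.43 and −0.06), with Insig1, a sterol sensor of the endoplasmic reticulum, at 11.59 on the high-fat array, 10.29 on KO1 and 11.68 on KO2.

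In fat synthesis 5 of 24 genes were lower on KO1, close to the 20.3% of all tested genes, and 0 on KO2 (−0.07 and 0.04). After centring 4 were higher and 3 lower on KO1. Scd2, a stearoyl-CoA desaturase, was at 12.10 on the high-fat array, 10.64 on KO1 and 12.19 on KO2. Fatty acid oxidation gave 5 (3 after centring) and 0 of 20 (−0.11 and −0.04) and insulin signalling and glucose handling 2 (1 after centring) and 0 of 29 (0.01 and −0.02). Gys2, a glycogen synthase, was at 8.66 on the high-fat array, 6.84 on KO1 and 8.25 on KO2, and Insr, the insulin receptor, at 9.89 on the high-fat array, 10.38 on KO1 and 10.02 on KO2. Lipolysis genes gave 1 and 2 of 12 lower (0.30 and 0.03), or 0 and 1 after centring. Thermogenic genes gave 2 and 3 of 10 lower (0.13 and −0.25), or 1 and 1 after centring. On KO2, 1.31% of all tested genes were that much lower. Cidea, a lipid droplet protein of the thermogenic list, was at 6.05 on the high-fat array, 6.22 on KO1 and 5.45 on KO2. The potassium channel gene Kcnk3 was the thermogenic list's member at least 1.5-fold lower on both KO arrays, at 8.13 on the high-fat array, 7.40 on KO1 and 7.50 on KO2, and was within 1.5-fold on both after centring.

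Genes of the ribosome and the respiratory chain were higher on KO1. Of 28 ribosomal protein genes, 7 were at least 1.5-fold higher there (17 after centring) and 0 on KO2, with relative medians of 0.63 and 0.11. Rps29 was at 10.29 on the high-fat array, 11.47 on KO1 and 10.46 on KO2. For oxidative phosphorylation subunits the counts were 5 (13 after centring) and 0 of 29 (0.52 and 0.07), with Ndufa4, a subunit of the respiratory chain, at 9.90 on the high-fat array, 10.81 on KO1 and 10.03 on KO2. The low-fat wild type array lay between, with relative medians of 0.38 and 0.33.

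**Figure D3:**
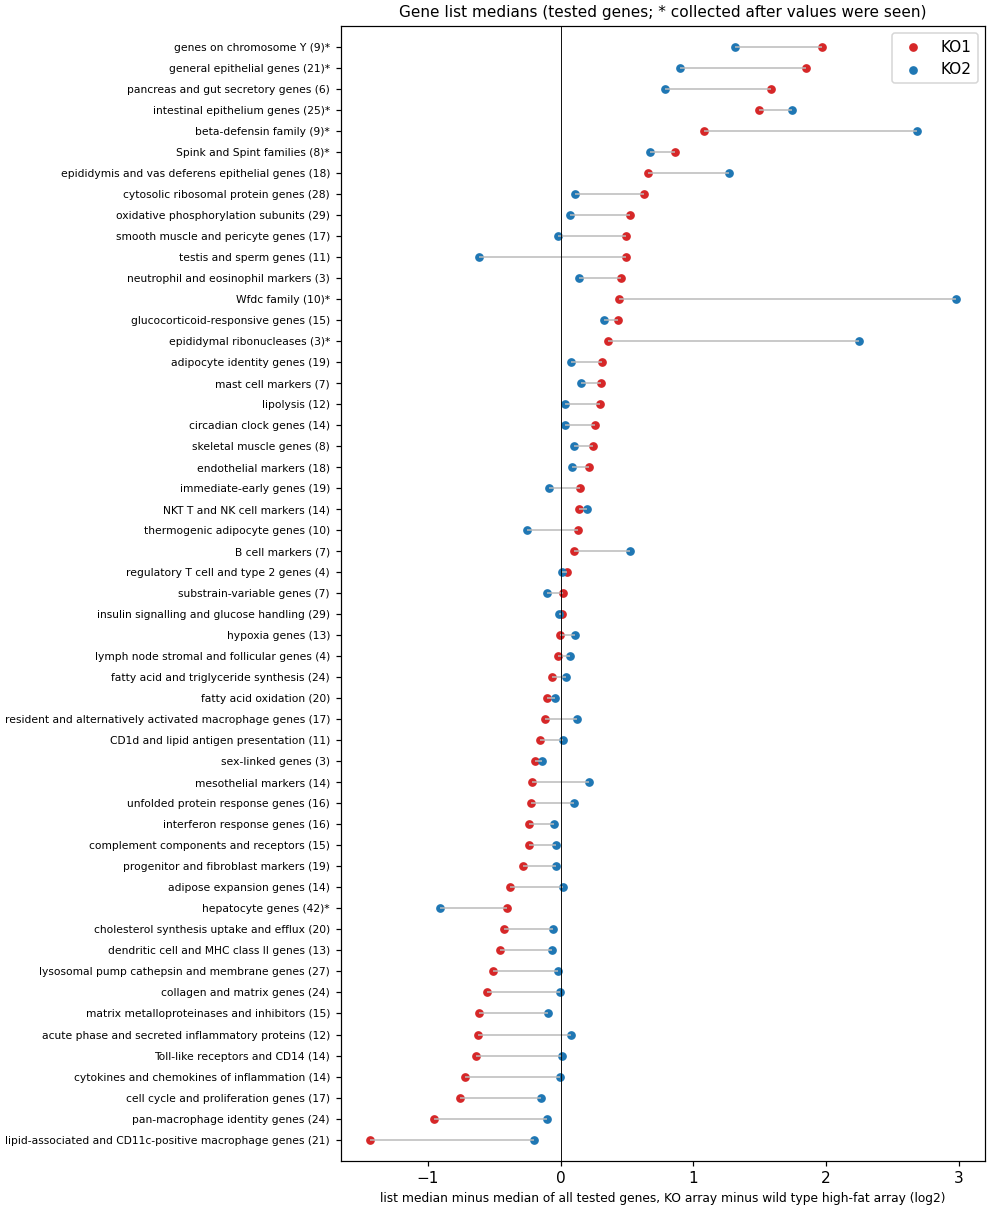
Median difference from the wild type high-fat array (log2) of the tested genes of each list, minus the median of all tested genes, on KO1 (red) and KO2 (blue); tested genes in parentheses, lists with at least 3. Lipid-associated macrophage genes lie lowest on KO1 at −1.44, and the Wfdc family highest on KO2 at 2.98.

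A part of the epididymal genes was higher on each KO array than on the high-fat array. Of 18 tested genes of the epididymis and vas deferens list, 8 were at least 1.5-fold higher on KO1 and 12 on KO2, 3 of them on both, with relative medians of 0.66 and 1.26. Over the list and the symbol families of beta-defensins, Wfdc, Spink, Spint, epididymal lipocalins and ribonucleases and Pate genes, 40 genes were tested. The families were collected after their values were seen. At least 1.5-fold higher were 17 on KO1 and 27 on KO2, 9 of them on both, 8 on KO1 only and 18 on KO2 only, and 0 were that much lower on either. Most high-fat levels lay near the bottom of the range, with a median of 4.62 against 5.23 on KO1, 6.60 on KO2 and 8.01 on the low-fat wild type array. A gene low on 3 arrays enters the test only when its mean passes the filter, so counts over these tested members are a description.

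Among tested genes higher on both KO arrays, those with the largest shared difference were protease inhibitors and surface proteins of this kind. Ly6f, a Ly6 family surface protein, was at 4.87 on the high-fat array, 8.97 on KO1 and 8.73 on KO2, with an adjusted p = 0.146 in limma and 0.00952 when only genes above the 60th percentile were tested. Wfdc10, of the whey acidic protein domain family of protease inhibitors, was at 5.37 on the high-fat array, 9.08 on KO1 and 10.00 on KO2, with 0.385 and 0.0273 in the same limma tests. Ly6f and Wfdc10 were under the 5.45 filter on the high-fat array and entered these tests through the other arrays. Their p-values are therefore a description and not support. Wfdc15b was at 4.93 on the high-fat array, 9.12 on KO1 and 8.06 on KO2 and the inhibitor gene Spink8 at 6.52 on the high-fat array, 11.68 on KO1 and 9.63 on KO2. All of these were also high on the low-fat wild type array, at 7.94, 10.51, 8.81 and 11.30.

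The genes named as high on KO1 alone were epithelial and smooth muscle genes. Here alone sets a KO array against the other KO array and leaves the low-fat wild type array aside. Pcp4, a calmodulin-binding peptide, was at 4.97 on the high-fat array, 12.04 on KO1 and 4.86 on KO2, at least 134-fold higher on KO1, the largest difference upward among its tested genes. Defb42, a beta-defensin, was at 4.77 on the high-fat array, 10.58 on KO1 and 5.34 on KO2, and Defb30 at 4.59 on the high-fat array, 8.20 on KO1 and 5.16 on KO2. The epithelial factor gene Gata3 was at 5.31 on the high-fat array, 8.46 on KO1 and 5.20 on KO2, Anxa13, an annexin of epithelia, at 5.13 on the high-fat array, 8.71 on KO1 and 5.17 on KO2, and Cldn8, a tight junction claudin, at 4.08 on the high-fat array, 7.64 on KO1 and 4.66 on KO2. Fxyd4, a regulator of the sodium pump, was at 4.81 on the high-fat array, 8.04 on KO1 and 4.88 on KO2 and the drug efflux transporter gene Abcg2 at 7.25 on the high-fat array, 10.28 on KO1 and 7.08 on KO2. KO2 was within 1.5-fold of the high-fat array on each by the naming rule. Smooth muscle genes were high with them: Cnn1, calponin, was at 5.59 on the high-fat array, 11.03 on KO1 and 5.12 on KO2, and Actg2, the actin of visceral smooth muscle, at 5.39 on the high-fat array, 9.70 on KO1 and 5.17 on KO2. Of 17 smooth muscle and pericyte genes, 8 were at least 1.5-fold higher and 2 lower on KO1, with 0 in either direction on KO2. The relative medians were 0.49 and −0.02. On the low-fat wild type array 6 were at least 1.5-fold higher and 1 lower than on the high-fat array, with a relative median of 0.25. Actg2, Anxa13 and Abcg2 were at 6.93, 6.71 and 7.79 there.

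The genes named as high on KO2 alone, KO1 being near the high-fat level, were chiefly secreted and membrane proteins of the epididymis. Such genes were also high on the low-fat wild type array. There, 33 of the 40 tested epididymal genes were at least 1.5-fold above the high-fat array. Adam7, a sperm-binding membrane protein of the epididymal epithelium, was at 3.60 on the high-fat array, 3.68 on KO1 and 8.71 on KO2. On the low-fat wild type array Adam7 was at 9.35. Cuzd1 was at 4.32 on the high-fat array, 4.60 on KO1 and 9.26 on KO2. The beta-defensin genes Defb26, Defb22 and Defb39 were at 8.81, 7.34 and 7.75 on KO2, against 3.96, 3.45 and 3.95 on the high-fat array and 4.40, 3.66 and 3.98 on KO1. KO1 thus sat at the high-fat level for all of them. Eppin, a protease inhibitor on the sperm surface, was at 4.27 on the high-fat array, 4.41 on KO1 and 7.52 on KO2, Pate2 at 3.72 on the high-fat array, 3.88 on KO1 and 7.31 on KO2 and Npy, neuropeptide Y, at 5.36 on the high-fat array, 5.37 on KO1 and 8.45 on KO2. Spint4 and Spint5, high on the low-fat wild type array at 11.35 and 10.75, were at 3.19 and 4.22 on the high-fat array, 3.25 and 4.31 on KO1 and 4.43 and 4.82 on KO2. Both KO arrays were thus far below the wild type array of the same diet label on these inhibitors.

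**Figure D4:**
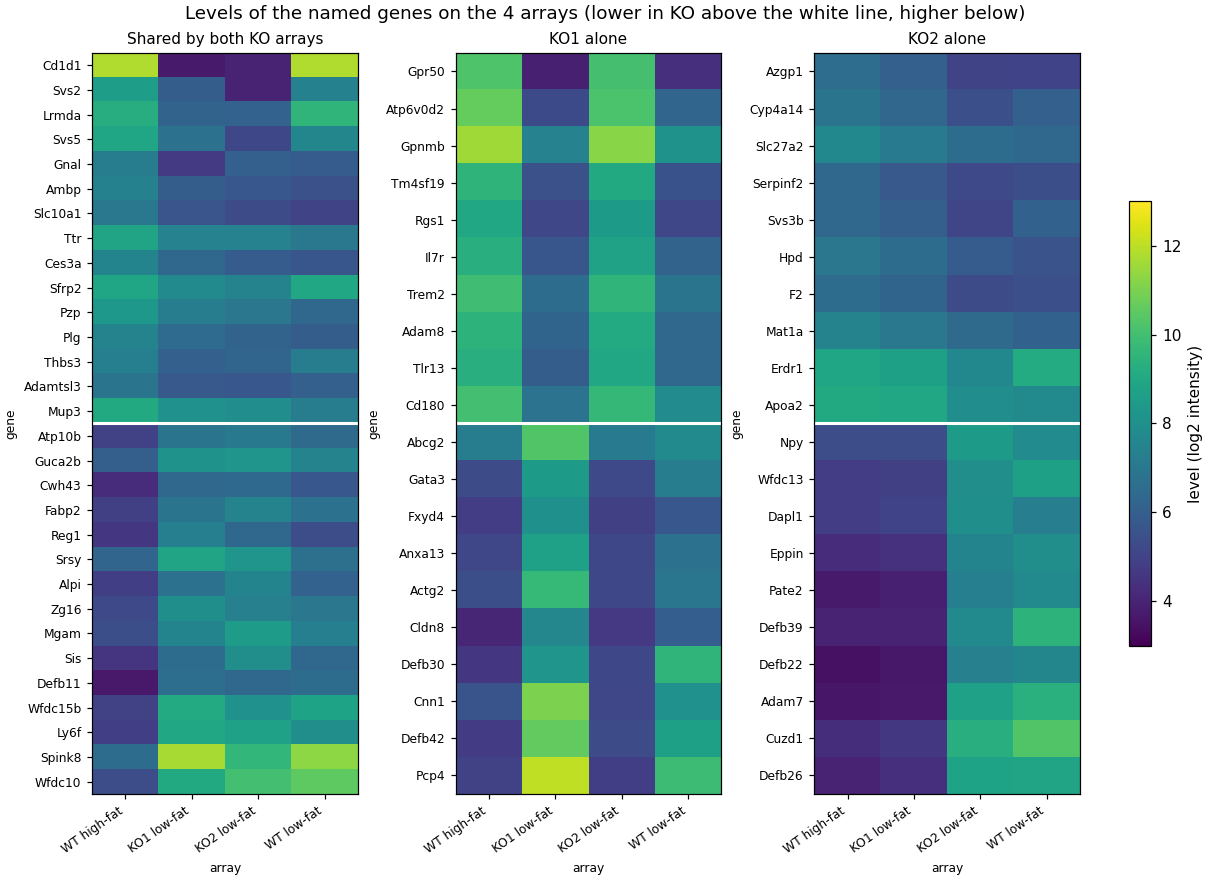
Levels (log2 intensity, colour) of the named genes on the 4 arrays, in panels for genes shared by both KO arrays, KO1 alone and KO2 alone; genes lower than on the high-fat array stand above the white line and higher ones below. In the middle panel KO2 has the colours of the high-fat array, with Gpr50 at 10.24 and 10.06, and in the right panel KO1 does.

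Sperm and seminal vesicle transcripts were spread otherwise. Svs2 and Svs5, secretory proteins of the seminal vesicle, were highest on the high-fat array, at 8.59, 5.95, 3.94 and 7.40 and 8.90, 6.74, 5.16 and 7.61. Sperm chromatin genes were opposite on the KO arrays: Prm1, a protamine, was at 8.63 on the high-fat array, 9.98 on KO1 and 7.36 on KO2, and the transition protein gene Tnp2 at 6.22 on the high-fat array, 7.51 on KO1 and 5.21 on KO2. Of 11 tested genes of testis, sperm and seminal vesicle, 5 were at least 1.5-fold higher on KO1 and 6 at least 1.5-fold lower on KO2.

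General epithelial genes and those of intestinal epithelium were higher on both KO arrays, and genes of hepatocytes lower on both. These 3 groups were collected after their values were seen, so their counts partly restate that choice. On the high-fat array the tested intestinal and general epithelial genes had median levels of 4.89 and 5.32, under the 5.45 filter. Many of them entered the test only through the other arrays, so their counts are a description. Of 25 tested intestinal genes, 19 were at least 1.5-fold higher on both KO arrays, with relative medians of 1.49 and 1.74, and of 42 tested hepatocyte genes 22 were that much lower on both, with −0.41 and −0.91. General epithelial genes counted 10 of 21 higher on both (1.85 and 0.90). The low-fat wild type array differed from the high-fat array the same way, with relative medians of 1.13 for intestinal, −1.24 for hepatocyte and 1.35 for general epithelial genes. The promoters of a pair of genes of each group, those of hepatocytes and of intestine, are shown because the genes of a group differed together, with RefSeq windows of build GRCm38.p6 from 250 bases before to 50 after the start, each on its gene's strand. Capitals mark GTTAAT, the core half-site of the liver and gut factor HNF1, or its reverse complement ATTAAC. The windows are chr5:90460620-90460919 on the plus strand for Alb, serum albumin, chr4:63154123-63154422 on the minus strand for Ambp, the precursor of alpha-1-microglobulin, chr3:72967814-72968113 on the minus strand for Sis, sucrase-isomaltase, and chr4:119658896-119659195 on the minus strand for Guca2b, uroguanylin.
Alb: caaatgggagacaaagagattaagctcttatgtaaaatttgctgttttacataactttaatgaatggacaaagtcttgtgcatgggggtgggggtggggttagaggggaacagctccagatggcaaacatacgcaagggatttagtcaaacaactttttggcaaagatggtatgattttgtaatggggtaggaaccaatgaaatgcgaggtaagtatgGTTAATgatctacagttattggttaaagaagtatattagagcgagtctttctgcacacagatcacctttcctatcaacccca
Ambp: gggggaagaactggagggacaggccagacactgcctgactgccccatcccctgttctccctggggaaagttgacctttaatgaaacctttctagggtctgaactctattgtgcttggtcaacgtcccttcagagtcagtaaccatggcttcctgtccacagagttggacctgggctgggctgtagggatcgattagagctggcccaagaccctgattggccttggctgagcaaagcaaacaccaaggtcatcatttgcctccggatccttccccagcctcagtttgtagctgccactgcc
Sis: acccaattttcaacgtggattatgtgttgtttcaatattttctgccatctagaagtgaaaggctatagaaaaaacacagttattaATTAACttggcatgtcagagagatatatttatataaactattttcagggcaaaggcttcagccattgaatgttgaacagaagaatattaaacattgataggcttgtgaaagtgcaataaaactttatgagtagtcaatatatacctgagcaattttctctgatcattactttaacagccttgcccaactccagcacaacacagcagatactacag
Guca2b: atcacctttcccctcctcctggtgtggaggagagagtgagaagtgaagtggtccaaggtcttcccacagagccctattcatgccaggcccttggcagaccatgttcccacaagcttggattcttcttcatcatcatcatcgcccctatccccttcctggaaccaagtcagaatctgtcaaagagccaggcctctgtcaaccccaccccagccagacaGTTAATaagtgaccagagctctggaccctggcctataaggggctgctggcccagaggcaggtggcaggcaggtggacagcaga

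The motif GTTAAT, on either strand, stood in 7.1% of all 32851 promoter windows. It stood in 10 of 44 windows of the hepatocyte genes (22.7%) and 9 of 38 of the intestinal genes (23.7%), over 40 and 35 genes with a window. General epithelial genes held it in 1 of 21 windows (4.76%). The windows are those of all list members, tested or not, and the lists were collected after values were seen. The shares therefore describe the lists and not the differences between the arrays. A match is a description of these letters and not a binding site, and Ambp has none in its window.

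The intestinal genes higher on both KO arrays included digestive enzymes and carriers of the brush border. Sis was at 4.50 on the high-fat array, 6.53 on KO1 and 7.93 on KO2, at least 4.08-fold and 10.8-fold higher, and Mgam, maltase-glucoamylase, at 5.42 on the high-fat array, 7.53 on KO1 and 8.50 on KO2. Alpi, intestinal alkaline phosphatase, was at 4.84 on the high-fat array, 6.75 on KO1 and 7.52 on KO2, and Fabp2, the fatty acid binding protein of enterocytes, at 4.89 on the high-fat array, 6.84 on KO1 and 7.46 on KO2. KO2 was the higher of the KO arrays for all of these 4. Guca2b was at 6.03 on the high-fat array, 8.11 on KO1 and 8.21 on KO2, and Zg16, a lectin of goblet cell mucus, at 5.21 on the high-fat array, 7.98 on KO1 and 7.37 on KO2. Reg1, an antimicrobial lectin of gut and pancreas, was at 4.57 on the high-fat array, 7.31 on KO1 and 6.39 on KO2, and Slc5a1, the sodium-glucose cotransporter, at 4.28 on the high-fat array, 5.99 on KO1 and 6.71 on KO2. Limma gave adjusted p-values from 0.768 for Guca2b to 0.999 for Sis among these genes. Anpep, an aminopeptidase that macrophages and fibroblasts make as well, was the member at least 1.5-fold lower on KO1, at 10.58 on the high-fat array, 8.50 on KO1 and 10.32 on KO2. Epcam, a surface protein of epithelia, was at 4.57 on the high-fat array, 6.88 on KO1 and 6.02 on KO2, and the keratin gene Krt18 at 6.55 on the high-fat array, 8.74 on KO1 and 7.62 on KO2. The defining intestinal factors Cdx1 and Cdx2 and the structural gene Vil1 were below the filter, at 5.51, 4.60 and 5.24 on KO1 and 5.11, 4.57 and 5.80 on KO2. Of the pancreas and gut list, 3 of 6 tested genes were higher on both, Zg16, Reg1 and Akp3.

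Hepatocyte genes were lower on both KO arrays, with a larger median difference on KO2. Alb was at 12.20 on the high-fat array, 11.24 on KO1 and 11.25 on KO2, 1.95-fold and 1.94-fold lower, and 10.92 on the low-fat wild type array. Ambp was at 7.38 on the high-fat array, 5.96 on KO1 and 5.71 on KO2 and Ttr, the thyroxine carrier, at 8.84 on the high-fat array, 7.44 on KO1 and 7.43 on KO2. Slc10a1, the bile acid uptake carrier of hepatocytes, was at 6.99 on the high-fat array, 5.65 on KO1 and 5.32 on KO2, Ces3a, a liver carboxylesterase, at 7.50 on the high-fat array, 6.33 on KO1 and 5.92 on KO2 and Plg, plasminogen, at 7.48 on the high-fat array, 6.51 on KO1 and 6.19 on KO2. In all 6 the low-fat wild type array was the lowest of the 4. Mup3, a major urinary protein with close copies that may share its probes, was at 9.07 on the high-fat array, 8.06 on KO1 and 7.90 on KO2. Within the KO pair, 2 genes were at least 1.5-fold lower on KO2 only. Apoa2, an apolipoprotein of HDL, was at 9.08 on the high-fat array, 8.99 on KO1 and 7.89 on KO2. The low-fat wild type array had Apoa2 low as well, at 7.78. The prothrombin gene F2 was at 6.54 on the high-fat array, 6.24 on KO1 and 5.33 on KO2. Hnf4a, the hepatocyte and gut factor, was at 5.90 on the high-fat array, 5.60 on KO1 and 5.91 on KO2. Genes of this group that adipocytes also express strongly stayed level, with Rbp4 at 12.65 on the high-fat array, 12.74 on KO1 and 12.55 on KO2 and Trf at 12.83 on the high-fat array, 12.87 on KO1 and 12.85 on KO2. In limma the adjusted p was 1 for Rbp4 and 0.999 for each of the other hepatocyte genes named here.

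Acute phase and secreted inflammatory proteins, a list that shares fibrinogen and other genes with the hepatocyte group, were lower in 8 of 12 on KO1 and 3 on KO2, 3 on both. Itih4, Fgg and Fgb, of liver, were those lower on both, with differences of −0.91 and −0.88, −1.05 and −0.73 and −0.60 and −0.62; Fgb was within 1.5-fold on both after centring. Genes of this list that fat makes itself went apart on the KO arrays. Saa3, serum amyloid A3, was at 9.22 on the high-fat array, 6.43 on KO1 and 9.78 on KO2, the iron-binding lipocalin Lcn2 at 8.37 on the high-fat array, 7.92 on KO1 and 9.76 on KO2 and Hp, haptoglobin, at 12.86 on the high-fat array, 11.91 on KO1 and 13.18 on KO2, each lowest on KO1 and highest on KO2.

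Markers of NKT, T and NK cells were low throughout. Of 29 genes, 14 were tested, and Klrb1c (NK1.1), Ncr1, Eomes and the cytotoxic genes Gzma, Gzmb and Prf1 were below the filter. On KO1, 4 of the 14 were at least 1.5-fold lower (1 after centring, against 20.3% of all tested genes uncentred) and 1, Zbtb16, higher, while KO2 had 0 in either direction, with relative medians of 0.14 and 0.20. Il7r, the interleukin-7 receptor, was at 9.30 on the high-fat array, 5.67 on KO1 and 8.75 on KO2, following the macrophage genes. Cd3e, a chain of the T cell receptor complex, was at 6.04 on the high-fat array, 5.95 on KO1 and 6.19 on KO2, and Cxcr6, a chemokine receptor of NKT cells, at 5.55 on the high-fat array, 5.52 on KO1 and 5.67 on KO2. Plasma cell genes were higher on both KO arrays: Igkc, an immunoglobulin light chain, was at 7.46 on the high-fat array, 8.58 on KO1 and 8.53 on KO2, and Jchain, which joins secreted antibodies, at 7.39 on the high-fat array, 8.28 on KO1 and 8.57 on KO2. The low-fat wild type array was as high, at 8.53 and 8.65. They were the 2 of 7 tested B cell list members at least 1.5-fold higher on both.

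Some clock genes of opposite phase lay on opposite sides of the high-fat level on KO1. Of the activating arm, Arntl (BMAL1) was at 7.21 on the high-fat array, 6.62 on KO1 and 6.98 on KO2. Npas2, a Clock paralogue, was at 7.70 on the high-fat array, 6.65 on KO1 and 7.22 on KO2. Arntl was within 1.5-fold on KO1 after centring. Among the period genes of the repressing arm, Per1 was at 8.46 on the high-fat array, 9.10 on KO1 and 8.78 on KO2 and Per3 at 7.46 on the high-fat array, 8.05 on KO1 and 7.42 on KO2. KO2 was within 1.5-fold of the high-fat array on all 14 tested clock genes, of which 5 were lower and 2 higher on KO1, or 1 and 5 after centring. The low-fat wild type array had Arntl at 7.37 and Per3 at 7.81. The labels used here give no time of day for tissue collection, and its part in these values was not tested.

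Endothelial and mesothelial markers went differently. Endothelial markers had relative medians of 0.21 and 0.09 with 1 of 18 at least 1.5-fold lower on KO1 (0 after centring), Aqp7, which adipocytes share, and 0 on KO2. Mesothelial markers split on KO1, with 4 of 14 higher and 6 lower (−0.22 and 0.21), or 4 and 4 after centring, while KO2 had 4 higher and 0 lower. The higher ones on KO1 were Krt8, Krt18, Krt19 and Cdh1, which epithelia share and of which 3, all but Krt19, were higher on both, and the lower ones held the defining genes Wt1, Msln and Upk3b. Msln, mesothelin, was at 7.10 on the high-fat array, 6.47 on KO1 and 7.63 on KO2, and Upk3b, uroplakin 3b, at 9.10 on the high-fat array, 8.19 on KO1 and 9.19 on KO2. Immediate-early genes had relative medians of 0.14 and −0.09. Those lower on both were Atf3, a stress-induced factor, at 9.38 on the high-fat array, 6.61 on KO1 and 8.65 on KO2, and Fos at 7.20 on the high-fat array, 5.66 on KO1 and 6.61 on KO2, which was within 1.5-fold on KO2 after centring. The medians were −0.22 and 0.10 for the unfolded protein response, −0.01 and 0.11 for hypoxia, 0.24 and 0.10 for skeletal muscle, 0.30 and 0.15 for mast cells and 0.04 and 0.01 for regulatory T cell and type 2 genes. They were −0.20 and −0.14 for sex-linked genes, −0.02 and 0.07 for lymph node stroma and 0.45 and 0.13 for neutrophils and eosinophils, with 3 tested genes in the last. Of red blood cell genes 2 were tested, Alas2, of haem synthesis, at 8.40 on the high-fat array, 8.29 on KO1 and 7.76 on KO2 and Slc4a1 at 5.71 on the high-fat array, 6.37 on KO1 and 5.38 on KO2. S100a8, a calprotectin gene of neutrophils, was at 6.45 on the high-fat array, 6.66 on KO1 and 7.56 on KO2, and S100a9 at 5.18 on the high-fat array, 6.88 on KO1 and 5.23 on KO2, so that each was high on a different KO array.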

How the data were processed

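RNA of epididymal adipose tissue was measured on mouse whole-transcript arrays, 1 array per pool. The authors deposited linear intensity values of 35556 probe sets on 4 arrays, between 5.709 and 20091.8, which the submitters' processing notes credit to RMA, with R 2.15.0. The build and annotation behind the array were not given in the sources used here. RMA sets all arrays to a common distribution of probe intensities, so a shift of total RNA between groups cannot be seen. No read depth exists for arrays, and their number limits the precision.

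Intensities were converted to log2 here. Probe sets were named through the platform table: 21218 had 1 gene symbol, 1881 several and 12457 none, and only the first were used. A gene was read from its probe set of highest mean level, which gave 18820 genes. Of these, the 11292 at or above the 40th percentile of mean level (5.45) were tested. Each KO array was compared with the high-fat array by size, at 1.5-fold. Both KO arrays together were compared with it in limma 3.58.1 (R 4.3.3) with a mean per group, two-sided, adjusted over all tested genes; the lone wild type array is assumed to vary like the KO pair. The fit was tested on simulated data, where its share of false calls was above the nominal threshold and most of the smallest differences were missed, so neither a call nor its absence is firm with 1 residual degree of freedom. Alternatives were the filter, the mean over a gene's probe sets, centring, quantile normalization, an intensity trend, the thresholds and each KO array left out. Tables and figures were made in Python 3.11.15 with matplotlib 3.10.9.

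Named genes were Cd1d1 and Cd1d2, the 15 highest and 15 lowest past the limma threshold, filled up by the largest difference shared by both KO arrays, the 10 highest and 10 lowest on each KO array alone, and from each list up to 6 tested members by mean difference and 4 by difference between the KO arrays. Genes outside it (Alb, Hnf4a, the defining markers and members of groups said to be collected later) were chosen after their values were seen. The members and the gene lists were chosen with earlier results of these data known.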

Additional observations from a re-analysis of the deposited data

How the results depend on the processing

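The limma test called 0 genes higher and 1 lower. With genes above the 60th percentile of mean level it called 2 higher and 2 lower, and with no filter 0 lower; the numbers of genes tested were then 7528 and 18820. Under the mean over probe sets, centring, quantile normalization, an intensity trend and an adjusted p threshold of 0.1 both counts stayed within 1.5 times. Without either KO array no spread is left, so limma gave no test. The counts by size moved with the filter and the fold, as their construction sets. With no filter there were 1053 genes higher on KO1, 410 higher and 233 lower on KO2, and 233 higher on both. At the 60th percentile the count was 258 higher on KO1, 44 and 43 on KO2, and 30 and 31 on both. At 2-fold they were 207 and 648 on KO1, 101 and 41 on KO2, and 55 and 16 on both. Centring gave 1102 higher and 1080 lower on KO1 and 44 lower on both. Without the hepatocyte, intestinal, epithelial, epididymal and testis genes, an alternative chosen after seeing the data, 70 genes were higher on both KO arrays. With only 1 KO array required, from 177 to 515 genes were higher and from 148 to 2291 lower, the smaller number being that of KO2 each time. Of 2463 recomputed differences of 323 named genes, 102 had the other sign, 79 of them with a KO array left out, 3 passed the threshold newly (Ly6f, Wfdc10 and Lrmda above the 60th percentile) and 1 no longer did (Cd1d1 with no filter). Of 630 recomputed list medians 105 moved by more than the spread between the KO arrays and 48 had the other sign; the cause was not tested. No paired analysis was possible because the wild type arrays carry no replicate numbers. The values rest on 1 wild type high-fat array and a KO pair that lie far apart, and low levels near background limit the size of many differences.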

Other observations

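Several named genes belong to no group described above. Gnal, a G protein subunit of smell and striatal signalling, was lower on both KO arrays, at 7.20 on the high-fat array, 4.69 on KO1 and 6.06 on KO2, with 5.92 on the low-fat wild type array. Adamtsl3, a matrix protein related to ADAMTS proteases, was at 6.85 on the high-fat array, 5.79 on KO1 and 5.72 on KO2, and 6.05 on that array. Atp10b, a lipid flippase, was higher on both, at 4.94 on the high-fat array, 6.83 on KO1 and 7.05 on KO2, as was Cwh43, at 4.26 on the high-fat array, 6.39 on KO1 and 6.42 on KO2. On KO2 alone, Azgp1, a lipid-mobilizing secreted protein of liver and fat, was at 6.58 on the high-fat array, 6.08 on KO1 and 5.03 on KO2, and Cyp4a14, a fatty acid hydroxylase induced through PPAR-alpha, at 6.84 on the high-fat array, 6.32 on KO1 and 5.44 on KO2. Erdr1 was at 8.89 on the high-fat array, 8.67 on KO1 and 7.67 on KO2. In limma none of these genes passed the threshold.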
